A study of Mus musculus with 15 samples.

Results

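The 6 libraries described here come from 2 stocks of cryopreserved CD-1 mouse hepatocytes kept in the same serum. The 3 libraries labelled m_pHep come from a male donor stock and the 3 labelled f_pHep from a female donor stock, out of 15 samples in the series, of which 13 could be tied to a column of counts. All 6 were plated on collagen at 200000 cells per well, left for 6 h to attach and covered with a Geltrex matrix. From the next day they were held for 24 h in medium with 25% serum of conventionally raised male mice (m_ConvR) and then given vehicle for 2 h. The medium of both stocks held dexamethasone and insulin. The other 7 usable libraries are all f_pHep: 2 in serum of conventionally raised females, 2 in serum of germ-free females, and 3 in germ-free female serum with growth hormone at 8 ng per ml. Donor sex and donor stock are the same variable in this design and cannot be told apart. The labels do not give the number of donors behind a stock, nor whether replicates are separate cultures, so p-values measure the spread between these libraries, which may be technical.

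Hepatocytes secrete most proteins of the blood plasma, among them albumin, clotting factors, complement and lipoproteins. They also make bile acids, glucose and urea, and they clear drugs and steroids with cytochrome P450 enzymes and conjugating enzymes. In rodents many of these genes differ between male and female liver under the control of the growth hormone pattern in blood. Hepatocytes in culture gradually lose part of their liver-specific expression.

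The 6 libraries held 34097400 to 39381453 counts over genes. In a principal component analysis of the 6, the first component held 62.0% of the variance and set the stocks apart, and the second held 12.5% and spread the f_pHep libraries. The spread between replicates was wider in f_pHep, with a chi-square per degree of freedom of 21.5 to 53.4 between pairs against 5.46 to 8.74 in m_pHep. The first f_pHep library held 31640 CPM (counts scaled to a common library size, with TMM) in 4 gene models that resemble ribosomal RNA, against 8833 and 12505 CPM in the other f_pHep libraries and 14176 to 18153 CPM in m_pHep. Of 8 Y-linked genes tested, 5 passed the test and all of these were higher in m_pHep.

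Both stocks carried the markers of hepatocytes. Of 12 hepatocyte markers, 10 were higher in m_pHep, 1 was lower (Hnf4a) and 1 did not pass the test (Apob). Their summed level was 39391 to 40357 CPM in m_pHep and 20390 to 22687 CPM in f_pHep. Markers of other liver cells were summed in the same way. Sinusoidal endothelial markers stood at 101 to 103 CPM in m_pHep and 53.5 to 57.0 CPM in f_pHep, with 11 of 14 tested members higher, among them Cdh5 (mean log2 difference 1.86) and Pecam1 (1.92). Kupffer cell and macrophage markers stood at 181 to 201 CPM and 93.6 to 112 CPM, most of it Cd68. Only 2 of 12 tested members were higher, Cd68 and Mpeg1, and 0 were lower. Clec4f, which defines Kupffer cells, had 3.13, 2.91 and 3.46 CPM in m_pHep and 3.03, 3.53 and 3.21 CPM in f_pHep, so the groups overlapped. The summed stellate cell markers (81.6 to 82.5 and 59.7 to 83.1 CPM) overlapped too. Of 14 tested, 5 were higher, among them Reln (1.38) and Col3a1 (0.96), and 1 lower (Col1a1). Cholangiocyte markers stood at 1380 to 1416 and 1556 to 1591 CPM, nearly all of it Cldn4. Of 12 tested, 3 were higher (Epcam, Cftr and Ehf) and 2 lower (Sox9 and Cldn4). The summed lymphocyte markers stood at 3.54 to 6.22 CPM and the summed neutrophil markers at 0.467 to 1.23 CPM over the 6 libraries, and Camp and Retnlg, made by neutrophils, had no count. Of all autosomal genes tested, 37.2% passed the test, 17.8% higher and 19.5% lower in m_pHep. The share passing among stellate and cholangiocyte markers was near this, so those counts are no result about these cells. In RNA of whole cultures, fewer cells of a type and less RNA per cell cannot be told apart, and the part of these other cells in the results below was not tested.

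**Figure D1:**
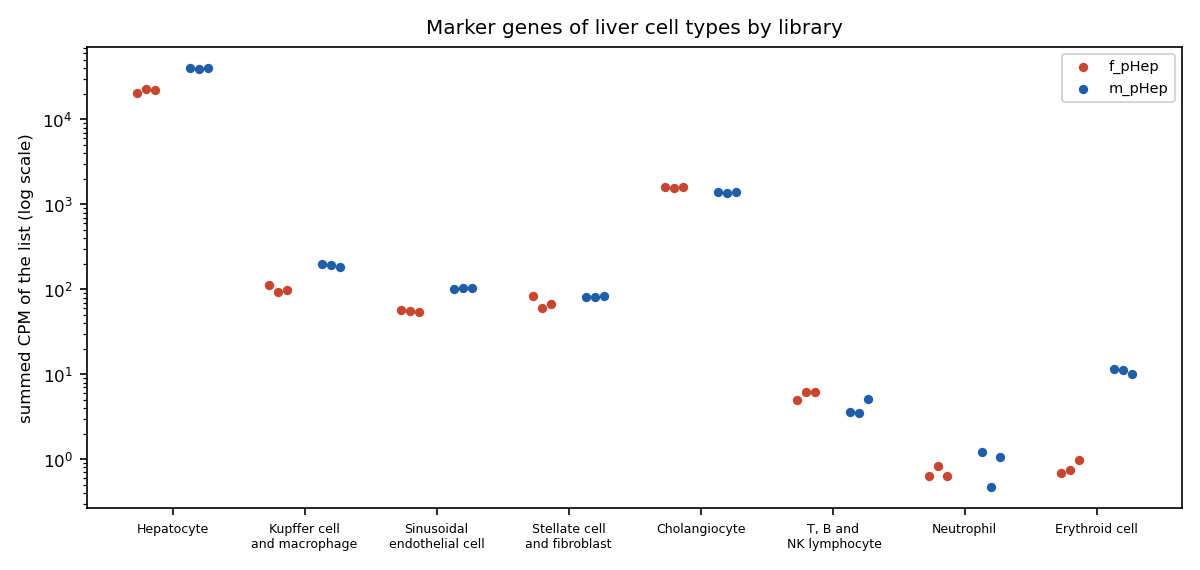
Summed CPM (log scale) of marker genes for 8 liver cell types, 1 point per library, f_pHep in red and m_pHep in blue. Hepatocyte markers stand at 39391 to 40357 CPM in m_pHep and 20390 to 22687 CPM in f_pHep, and the lymphocyte sums reach at most 6.22 CPM.

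Differences between the stocks were widespread. Of 16403 autosomal genes tested, 6109 passed an adjusted p of 0.05 (37.2%) in the quasi-likelihood test of edgeR. Of these, 2918 were higher in m_pHep (17.8% of genes tested) and 3191 lower (19.5%), with a median log2 difference over all tested autosomal genes of -0.02. The counts by gene list below are to be read against these shares. With scaling by library size only, 2231 were higher and 4464 lower, and the median of all genes moved to -0.11. A called difference of at least 2-fold was found for 1335 genes (8.14%), of which 904 were higher and 431 lower in m_pHep. The 3 m_pHep and 3 f_pHep libraries did not overlap in CPM for 7893 genes (48.1%). Most calls were small: 3263 were under 0.5 on the log2 scale, while 266 genes were at least 4-fold higher and 102 at least 4-fold lower. The share called ran from 32.8% on chromosome 13 to 40.8% on chromosome 10, and the share with a 2-fold call from 4.88% on chromosomes 11 and 16 to 11.9% on chromosome 12. For 4270 of the called genes (69.9%) all 3 m_pHep libraries lay outside the range of all 10 f_pHep libraries, whatever serum these had. Among the 2-fold calls this held for 1066 (79.9%).

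**Figure D2:**
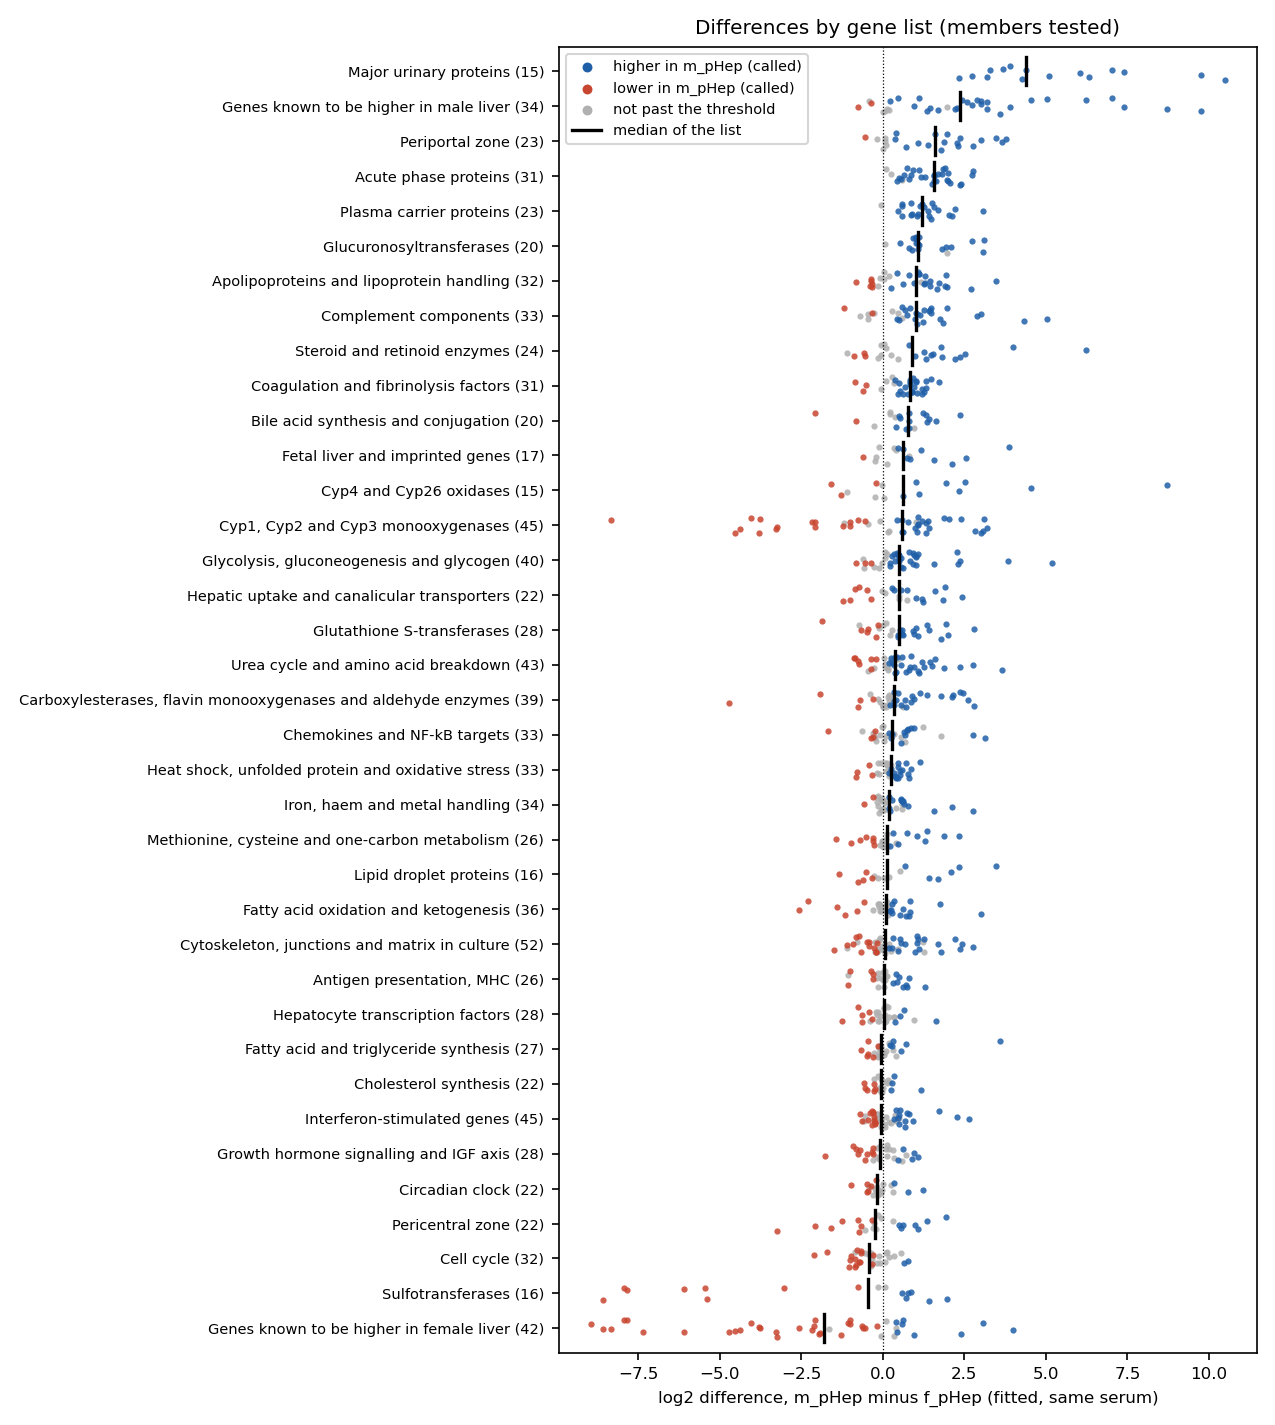
Fitted log2 difference (m_pHep minus f_pHep) of each tested member of 37 gene lists, blue where called higher, red where called lower and grey where not past an adjusted p of 0.05, with the list's median as a bar and the number tested in brackets. Plasma proteins, glucuronosyltransferases and periportal genes lie mostly to the right, while medians of lipid synthesis, cholesterol, interferon and transcription factor lists lie close to 0.

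Plasma carrier proteins were almost all higher in m_pHep. Of 23 tested, 22 were higher and 0 lower, with a median log2 difference of 1.20. Of the 22, 21 (95.5%) lay outside the range of all f_pHep libraries, against 69.9% over all called genes. Albumin (Alb, ENSMUSG00000029368, mm10 chromosome 5, 90460897 to 90476602), the main protein of plasma, had 17939, 17089 and 18073 CPM in m_pHep and 6986, 6629 and 6683 CPM in f_pHep. All m_pHep libraries were higher than any f_pHep library, by 1.39 ± 0.066 (log2 difference ± SE, adjusted p = 1.33e-10). Serpina1d, a protease inhibitor of the alpha-1-antitrypsin family (chromosome 12, 103763594 to 103773592), had 176, 165 and 176 CPM against 20.3, 20.3 and 20.7 CPM. The difference was 3.07 ± 0.0644 (adjusted p = 4.52e-15). Serpina1a, Serpina1b, Serpina1c and Serpina1e were higher as well (1.70 to 2.20), and reads of these near-identical genes cannot be assigned with certainty. Hpx, which binds free haem, Ttr, which carries thyroid hormone and retinol-binding protein, and Gc, which carries vitamin D, differed by 1.57, 1.15 and 1.08. Rbp4, the retinol carrier itself, was the member that did not pass the test (-0.06), at 240 CPM and 251 CPM on average.

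Acute phase proteins, which the liver secretes in inflammation, were higher in m_pHep in 28 of 31 tested members, with 0 lower and a median of 1.57. Hamp, the iron hormone hepcidin, had 150, 133 and 138 CPM in m_pHep and 17.5, 29.8 and 14.3 CPM in f_pHep, a difference of 2.78 ± 0.288 (adjusted p = 1.56e-06). Fgg, the fibrinogen gamma chain, had 617, 586 and 625 CPM against 83.5, 100.4 and 93.3 CPM, a difference of 2.72 ± 0.146 (adjusted p = 5.72e-10). The groups were far apart for both genes. Fga and Fgb, the other fibrinogen chains, were higher by 1.70 and 1.58, and Hp, haptoglobin, by 1.82. Lcn2, an iron-binding defence protein, had 5545, 5052 and 5580 CPM against 2702, 3262 and 2606 CPM (0.92 ± 0.106, adjusted p = 4.98e-06). Apcs, serum amyloid P, which is a main acute phase protein of the mouse, averaged 94.97 ± 8.41 (SD, n = 3) and 89.7 ± 6.52 CPM (n = 3) and did not pass the test (0.08, adjusted p = 0.443). Hamp2 (0.58) and Saa3 (0.25) did not pass either.

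For 19 of the 28 higher acute phase members (67.9%) the m_pHep libraries lay above all 10 f_pHep libraries, close to the 69.9% over all called genes. The other 9, among them Fga, Fgb, Hp and Crp, were reached by f_pHep in another serum. Fga averaged 1129 CPM in m_pHep and 349 CPM in f_pHep in male serum, while f_pHep libraries in all sera ran from 291 to 1490 CPM. Hamp kept apart, with f_pHep at most 99.0 CPM, and Saa1 too, at 723 CPM in m_pHep against at most 281 CPM.

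The 3 fibrinogen genes lie beside each other on chromosome 3, and their promoters are printed with those of Hamp and of Apcs, 1 of the 3 members that did not pass the test. Each is the 250 bases before the start site in the RefSeq annotation of GRCm38.p6, 5′ to 3′ on the strand of the gene. Capitals mark matches to TTCNNNGAA, the letters bound by STAT factors, and to TTGCNNAA, letters bound by C/EBP factors, searched on both strands.
Hamp, chr7:30944030-30944279, minus strand: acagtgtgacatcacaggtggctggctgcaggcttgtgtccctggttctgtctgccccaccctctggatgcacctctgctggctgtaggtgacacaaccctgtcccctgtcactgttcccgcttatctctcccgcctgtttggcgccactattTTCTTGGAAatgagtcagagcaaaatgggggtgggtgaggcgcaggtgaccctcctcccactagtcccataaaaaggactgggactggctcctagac
Fga, chr3:83025903-83026152, plus strand: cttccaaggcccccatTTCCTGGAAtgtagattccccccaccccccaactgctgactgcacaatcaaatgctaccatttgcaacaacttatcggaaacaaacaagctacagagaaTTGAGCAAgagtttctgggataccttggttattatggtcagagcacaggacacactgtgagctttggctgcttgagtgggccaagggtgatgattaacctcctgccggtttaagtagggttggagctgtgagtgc
Fgb, chr3:83049864-83050113, minus strand: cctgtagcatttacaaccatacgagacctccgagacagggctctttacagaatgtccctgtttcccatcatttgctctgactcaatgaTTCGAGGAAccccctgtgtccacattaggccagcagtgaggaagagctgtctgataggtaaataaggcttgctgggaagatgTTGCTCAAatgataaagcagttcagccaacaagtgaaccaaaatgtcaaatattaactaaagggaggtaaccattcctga
Fgg, chr3:83007474-83007723, plus strand: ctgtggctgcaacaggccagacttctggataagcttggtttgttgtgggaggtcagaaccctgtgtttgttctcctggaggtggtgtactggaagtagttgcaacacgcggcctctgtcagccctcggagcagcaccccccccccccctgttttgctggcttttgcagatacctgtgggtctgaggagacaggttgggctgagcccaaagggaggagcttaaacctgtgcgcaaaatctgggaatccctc
Apcs, chr1:172895055-172895304, minus strand: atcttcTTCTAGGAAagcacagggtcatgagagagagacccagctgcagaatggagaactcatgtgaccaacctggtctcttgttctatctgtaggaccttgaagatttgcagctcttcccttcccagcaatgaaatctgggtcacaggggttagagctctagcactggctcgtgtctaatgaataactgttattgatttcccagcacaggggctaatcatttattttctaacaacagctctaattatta
The STAT letters start at position -97 in Hamp, -234 in Fga, -162 in Fgb and -244 in Apcs, counted from the start site. The C/EBP letters start at -135 in Fga and -80 in Fgb, and Fgg held neither. Of 22 higher acute phase members with a promoter in the table, 6 held the STAT letters (27.27%) and 9 the C/EBP letters (40.91%). Among all 27018 promoters of the same length the shares were 7.18% and 9.56%. Of the 3 members that did not pass the test, 2 held the STAT letters and 1 the C/EBP letters. A match describes the letters only, and binding was not measured.

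Complement, the plasma cascade that lyses microbes, was higher in m_pHep in 24 of 33 tested members and lower in 2, with a median of 1.01. C9 (chromosome 15, 6445327 to 6498751), which forms the wall of the pore, had 68.6, 73.8 and 72.5 CPM in m_pHep and 3.62, 3.20 and 3.85 CPM in f_pHep. It differed by 4.33 ± 0.0894 (adjusted p = 4.48e-15), and all 10 f_pHep libraries lay at or under 4.15 CPM. C6, an earlier member of the same complex, had 769 counts over the m_pHep libraries and 25 over the f_pHep libraries, a ratio of 33.5 (95% exact interval 22.5 to 52.1, counting error only). C8a and C8b were higher by 2.90 and 3.002, and C8g by 1.01. C3, the central component, did not pass the test (0.27). Mbl2, a lectin that starts the cascade, went the other way, with 252, 231 and 237 CPM in m_pHep and 470, 593 and 577 CPM in f_pHep (-1.19 ± 0.107, adjusted p = 2.99e-07). Mbl1, its paralogue, was higher by 1.97. Clu, an inhibitor of the pore, was lower by 0.34, but f_pHep in other sera came down to 6880 CPM, under the 7856 to 8329 CPM of m_pHep.

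Coagulation and fibrinolysis factors were higher in 24 of 31 and lower in 3, with a median of 0.83. Hrg, a histidine-rich plasma protein that binds heparin and plasminogen, had 30.9, 31.5 and 30.4 CPM against 9.48, 8.90 and 9.71 CPM (1.72 ± 0.101, adjusted p = 1.65e-09). Plg, plasminogen, F2, prothrombin, and F12 were higher by 1.20, 1.04 and 1.20, and F5 (0.09) and F7 (0.29) did not pass. Tfpi, the inhibitor of the tissue factor pathway, which endothelium also makes, was higher by 1.46 ± 0.23; endothelial markers were higher in m_pHep too, and their part in this value was not tested. Serpind1, heparin cofactor II, was lower (-0.62), in every m_pHep library under every f_pHep library. Plau (-0.85), an activator of plasminogen, was called but lost the call in 5 of 15 alternative fits.

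**Figure D3:**
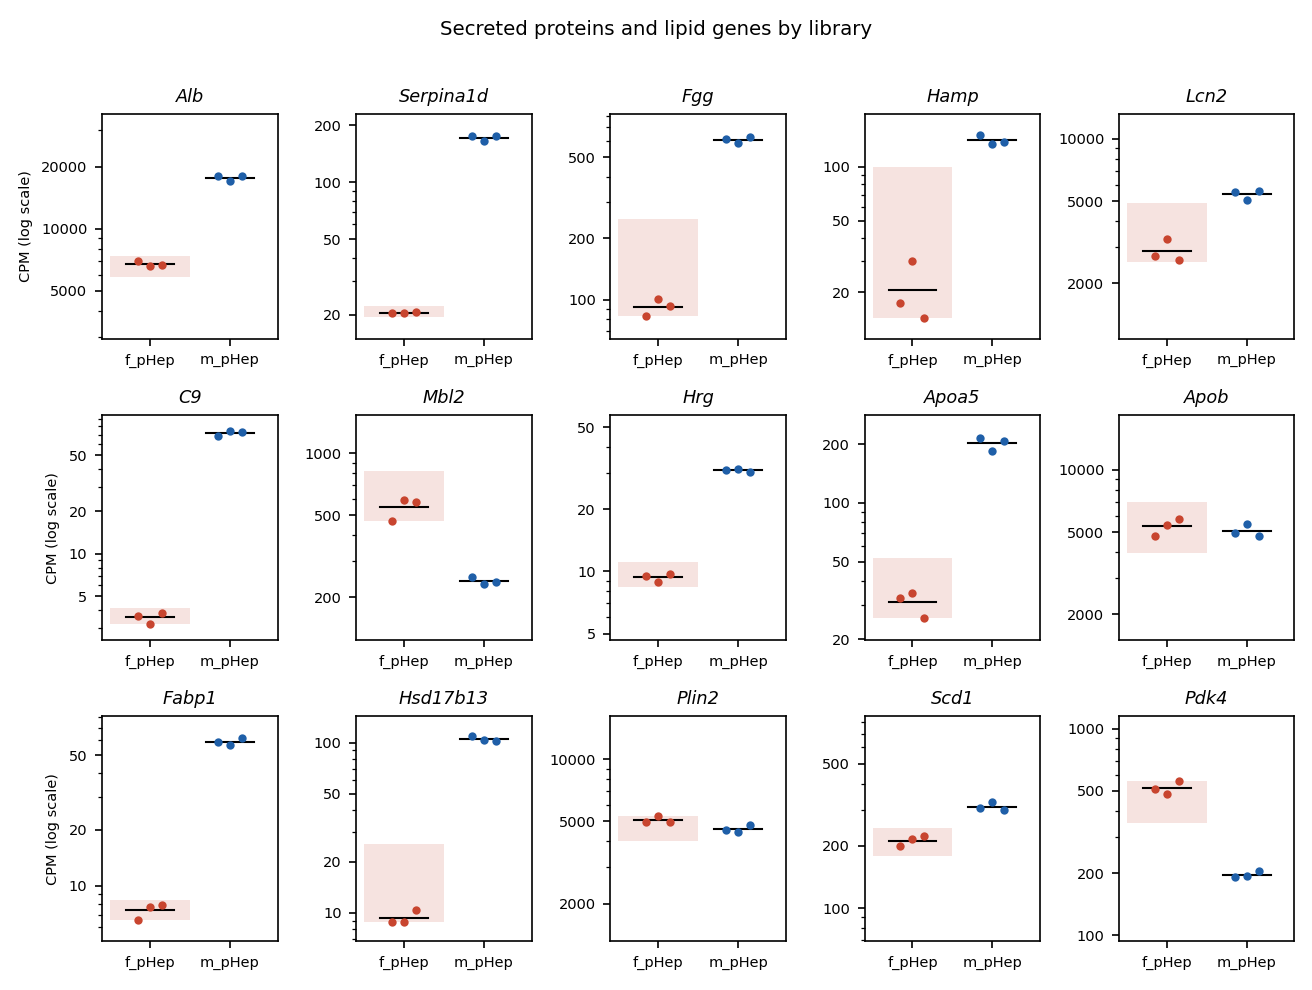
CPM (log scale) per library of 15 genes of secretion and lipid metabolism in f_pHep (red) and m_pHep (blue) in the same serum, with the mean as a bar and the range of all 10 f_pHep libraries as a pink band. Points of m_pHep lie above the band for Alb, Serpina1d, Fgg, Hamp, C9 and Fabp1, under it for Mbl2 and Pdk4, and inside it for Apob and Plin2.

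Of 32 apolipoproteins and lipoprotein genes tested, 20 were higher in m_pHep and 6 lower (median 1.01). The lower members included Mttp, Lrp1, Scarb1 and Abca1, which exports cholesterol. Apoa5, which promotes clearance of triglycerides, had 216, 184 and 207 CPM in m_pHep and 32.7, 34.6 and 25.8 CPM in f_pHep (2.71 ± 0.118, adjusted p = 4.46e-11). Apoa1, the main protein of HDL, Apoa4 and Apoc3, which lie near Apoa5, were higher by 1.94, 1.98 and 1.89. Part of the exons of Apoa5 and Apoa4 is shared with other gene models (20.8% and 69.8% of their bases). Apob, the backbone of VLDL, had 4938, 5485 and 4772 CPM in m_pHep and 4796, 5423 and 5782 CPM in f_pHep, so the groups overlapped (-0.07, adjusted p = 0.634). Mttp, which loads lipid onto Apob, was lower by 0.40, but f_pHep in all sera came down to 109.8 CPM, under the 117 to 128 CPM of m_pHep. It lost its call without f_pHep replicate 2 (adjusted p = 0.0596) and without m_pHep replicate 2 (0.0504). Scarb1 and Lrp1, receptors for lipoproteins, differed by -0.38 and -0.82. For Lrp1 f_pHep libraries in other sera came down to 103 CPM, under the 106 to 116 CPM of m_pHep.

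Of 27 genes of fatty acid and triglyceride synthesis 6 were higher and 6 lower (median -0.06). The share called was 44.4%, against 37.2% of all autosomal genes. Scd1, the desaturase that makes oleate, had 305, 327 and 297 CPM in m_pHep and 199, 215 and 222 CPM in f_pHep (0.55 ± 0.0771, adjusted p = 3.83e-05). Thrsp, a lipogenic regulator, was higher by 0.70, while Acly, Fasn and Elovl6, which supply acetyl-CoA, build the chain and lengthen it, differed by -0.46, -0.46 and -0.48. Elovl3 stood apart, with 181 and 16 counts, a ratio of 12.3 towards m_pHep (7.38 to 22.01). Fatty acid oxidation genes were higher in 13 of 36 and lower in 6 (median 0.09), with 52.8% called against 37.2% of all autosomal genes. Fabp1, the fatty acid carrier of liver cytosol, had 59.0, 56.7 and 62.1 CPM against 6.56, 7.67 and 7.92 CPM (3.003 ± 0.0955, adjusted p = 9.99e-13). Hadha (-0.09) and Acadl (-0.04), enzymes of the mitochondrial spiral, and Cpt1a (-0.14), which controls entry of fatty acids, did not pass. Pdk4, the kinase that shuts glucose carbon out of mitochondria, was lower, with 192, 193 and 204 CPM against 509, 481 and 561 CPM (-1.40 ± 0.118, adjusted p = 1.5e-07). The acyl-CoA thioesterases Acot1, Acot2, Acot3 and Acot4 were all lower in m_pHep (-2.29, -1.16, -2.58 and -0.80).

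Lipid droplet proteins fell into those higher (6 of 16) and those lower (5 of 16) in m_pHep. Hsd17b13, a droplet enzyme, had 110, 103 and 103 CPM in m_pHep and 8.89, 8.90 and 10.4 CPM in f_pHep, without overlap (3.48 ± 0.112, adjusted p = 1.04e-12). Plin4, Cidea and Cideb, which coat or fuse droplets, were higher by 2.33, 2.10 and 1.41, and 76.3% of the exon bases of Cideb are shared with other models. The lipolysis genes Lipe (-0.51) and Mgll (-0.77) and the lipase inhibitor G0s2 (-1.33) were lower. Plin2, the general droplet coat, differed by -0.14 and did not pass (adjusted p = 0.0998). Cholesterol synthesis held 4 higher and 6 lower of 22 (45.5% called, against 37.2% of all autosomal genes). Srebf2, the master regulator, was lower by 0.54. Insig2, which retains the sterol sensor in the endoplasmic reticulum, was higher by 1.16.

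Bile acid synthesis and conjugation was higher in 13 of 20 members and lower in 2 (median 0.76). Akr1c6, a hydroxysteroid dehydrogenase, had 10.05, 11.3 and 11.8 CPM in m_pHep and 1.90, 2.61 and 1.97 CPM in f_pHep (2.36 ± 0.15, adjusted p = 4.67e-09). Cyp7b1 and Cyp27a1, of the alternative pathway, differed by 1.34 and 0.49, Cyp2c70, which makes muricholic acids, by 1.41, and Baat, the conjugating enzyme, by 0.80. Cyp7a1, the rate-limiting enzyme of the classic pathway, held only 28 and 37 counts and did not pass (-0.27). Cyp46a1 and Klb, the co-receptor for FGF hormones, were lower (-2.09 and -0.84).

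Transporters of the sinusoidal membrane and those of the canaliculus did not move as a block: 11 of 22 were higher and 6 lower. Slco1a1, an organic anion carrier of male-typical expression in liver, had 15.0, 14.1 and 15.6 CPM against 2.46, 2.22 and 3.52 CPM (2.44 ± 0.164, adjusted p = 9.45e-09). Slc10a1, the main bile salt importer, and Slco1b2 were higher by 1.91 and 1.24. Abcb4, the phospholipid exporter, was higher by 1.61 and Abcb11, the bile salt export pump, lower by 0.85. Abcc4, a basolateral exporter, had 19.02, 21.2 and 24.8 CPM in m_pHep and 56.8, 38.8 and 56.0 CPM in f_pHep (-1.22 ± 0.129, adjusted p = 1.95e-06).

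Cytochromes P450 of families 1 to 3, listed with their reductase Por, differed in 39 of 45 tested genes, 23 higher and 16 lower in m_pHep. For 37 of the 39 (94.9%), m_pHep lay outside the range of all f_pHep libraries, against 69.9% over all called genes. Cyp2d9, a steroid hydroxylase known from male liver, had 61.6, 54.0 and 53.2 CPM in m_pHep and 6.08, 6.17 and 6.35 CPM in f_pHep (3.18 ± 0.0907, adjusted p = 2.92e-13). The drug-metabolising Cyp3a11, Cyp2c29 and Cyp2e1 were higher by 1.87, 2.04 and 1.08, and Cyp3a25 by 3.10. Cyp2b10, the classic target of the drug receptor CAR, had 36.7, 34.3 and 30.6 CPM against 7.12, 6.45 and 5.62 CPM (2.41 ± 0.109, adjusted p = 7.65e-11), although it is listed among genes of female liver. Nr1i3, which encodes CAR and shares 74.9% of its exon bases, did not pass (0.34), and Nr1i2, which encodes the receptor PXR, was higher by 0.53.

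On the other side, Cyp2c69 (chromosome 19, 39842814 to 39886799) had 10 counts over the m_pHep libraries and 3587 over the f_pHep libraries, a ratio of 329 towards f_pHep (179 to 688). Cyp2c40 and Cyp2c37, its neighbours in the same family, differed by -4.55 and -3.25, while Cyp2c67 was higher by 3.07 and Cyp2c68 by 0.44. Reads of these close copies may have been split or misplaced. Cyp2a5, which oxidises coumarin and nicotine, had 27.2, 29.998 and 28.1 CPM in m_pHep and 100.2, 145 and 120 CPM in f_pHep (-2.10 ± 0.138, adjusted p = 7.67e-09). Cyp2a4 and Cyp2a22 differed by -4.39 and -3.81. Por, which feeds electrons to all of these enzymes and is 1 of the 16 lower members, had 142, 134 and 137 CPM against 233, 242 and 232 CPM (-0.78 ± 0.066, adjusted p = 1.56e-07).

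In the Cyp4 and Cyp26 families 8 of 15 were higher and 3 lower. Cyp4v3, a hydroxylase of long fatty acids, had 254, 261 and 251 CPM against 114, 116 and 123 CPM (1.12 ± 0.065, adjusted p = 1.41e-09). Cyp4a10, a target of PPAR-alpha, was lower by 1.28, at 3.43 to 5.10 CPM in m_pHep, and f_pHep libraries in all sera came down to 3.89 CPM. Ppara itself did not pass (0.04).

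Conjugating enzymes differed by family. Glucuronosyltransferases and the enzymes that make their cofactor were higher in 18 of 20 tested, with 0 lower and a median of 1.08. All 18 lay above every f_pHep library, while 69.9% of all called genes lay outside the f_pHep range. Ugt2b35 had 45.9, 40.3 and 43.2 CPM in m_pHep and 4.63, 4.56 and 5.72 CPM in f_pHep (3.11 ± 0.134, adjusted p = 3.88e-11). Ugt2b5, Ugt2b1 and Ugt2b34 were higher by 3.08, 2.75 and 1.94. The 8 Ugt1a genes share exons, so their values, from 1.01 (Ugt1a7c) to 1.10 (Ugt1a1), are not separate measurements. Ugdh, which makes UDP-glucuronic acid, was higher by 0.54. Glutathione transferases and glutathione enzymes were higher in 16 of 28 and lower in 6 (median 0.49), with Gsta2 at 30.3, 26.3 and 26.4 CPM against 6.86, 7.48 and 6.50 CPM (1.99 ± 0.0992, adjusted p = 2.21e-10). Gstt3 went the other way, at 2.34, 2.88 and 2.28 CPM against 8.28, 10.01 and 9.36 CPM (-1.88 ± 0.134, adjusted p = 1.98e-08).

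Sulfotransferases divided into subfamilies. Members of the Sult2a and Sult3a groups, which sulfonate steroids, bile acids and amines, were close to absent in m_pHep. Sult3a1 had 1 count in m_pHep and 355 in f_pHep, a ratio of 326 (58.2 to 12916). Sult2a2 and Sult2a5 had 0 counts in m_pHep against 135 and 79, at least 41.3-fold and 24.2-fold lower taking 3 counts per group as the floor. Sult2a8 (listed as 2810007J24Rik) differed from its relatives, with 7.84, 9.29 and 7.55 CPM in m_pHep and 2.01, 2.20 and 2.15 CPM in f_pHep (1.96 ± 0.164, adjusted p = 1.36e-07). Sult1d1 was higher by 0.77. In all, 6 of 16 were higher and 8 lower, and Papss2, which makes the sulfate donor, was among the latter (-0.76). Some of the lower members, such as Sult2a2 and Sult2a5, passed the filter on low counts only through f_pHep, so their count is no support.

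Carboxylesterases, flavin monooxygenases and aldehyde enzymes were higher in 21 of 39 and lower in 5 (median 0.34). Aox3, an aldehyde oxidase, had 11.7, 10.9 and 10.1 CPM in m_pHep and 1.23, 1.61 and 1.82 CPM in f_pHep (2.81 ± 0.151, adjusted p = 5.95e-10). Ces3a, a lipid hydrolase, averaged 297 ± 2.66 CPM (SD, n = 3) against 54.5 ± 2.19 CPM (n = 3), a difference of 2.45. Steroid and retinoid enzymes were higher in 13 of 24 and lower in 3. Hsd11b1, which regenerates active glucocorticoid, was higher by 1.49, Hsd17b2, which inactivates oestradiol, by 1.52, and Dio1, which activates thyroid hormone, by 2.51.

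**Figure D4:**
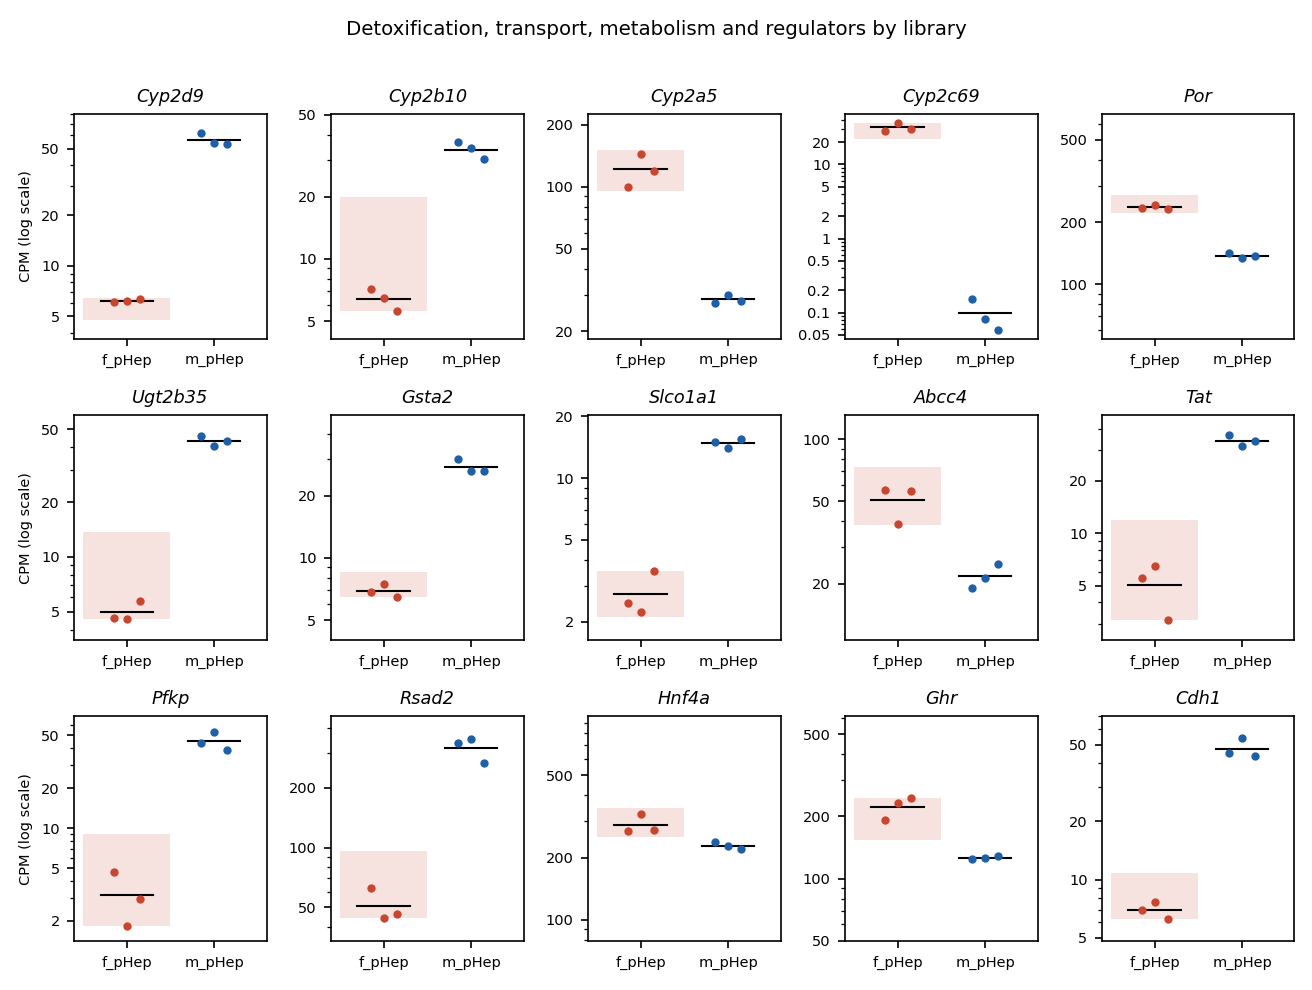
CPM (log scale) per library of 15 genes of detoxification, transport, metabolism and regulation in f_pHep (red) and m_pHep (blue), with the mean as a bar and the range of all 10 f_pHep libraries as a pink band. Points of m_pHep lie outside the band for all 15 genes, above it for 9 and under it for Cyp2a5, Cyp2c69, Por, Abcc4, Hnf4a and Ghr.

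Genes of known sex bias followed the donor label only in part, and these lists largely repeat genes known from earlier work on mouse liver. Of 21 major urinary protein genes 15 passed the filter on low counts, and these were higher in m_pHep (median 4.38). Some, such as Mup12 with 464 and 0 counts, passed it only through m_pHep, so their count is no support. Reads of these near-identical genes cannot be assigned with certainty. Of 34 genes with known male bias in liver 26 were higher and 2, Cux1 and Bcl6, lower. For Cux1 f_pHep in other sera came down to 20.6 CPM, within the m_pHep range of 18.5 to 21.4 CPM. Members that were not called include Egfr (0.13) and Cspg5 (0.07). Of 42 with known female bias 29 were lower in m_pHep and 8 higher. A1bg, a plasma protein of female mouse liver, had 3 counts in m_pHep and 1792 in f_pHep, a ratio of 549 (187 to 2663), with all 3 of its m_pHep counts in the second library. Hao2, a hydroxyacid oxidase, had 0 and 57 counts, at least 17.5-fold lower. Some female-biased members, such as Hao2, passed the filter on low counts only through f_pHep. Some male-biased members, such as Cyp4a12a with 1684 and 4 counts, passed it only through m_pHep. The counts of both lists are thus no support. Cyp2b10, Cyp2c67 and Cyp2c68 went against the list.

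Of 43 genes of the urea cycle and amino acid breakdown 26 were higher and 7 lower (median 0.39). Tat, which breaks down tyrosine and responds to glucocorticoid, had 36.7, 31.8 and 33.8 CPM in m_pHep and 5.54, 6.45 and 3.16 CPM in f_pHep (2.76 ± 0.174, adjusted p = 4.2e-09). In the urea cycle, Cps1, the entry enzyme, and Arg1, the last, were higher by 2.38 and 1.61, while the middle enzymes Ass1 (0.08) and Asl (0.07) did not pass. Sds, which turns serine into pyruvate and shares 29.6% of its exon bases, had 400 and 34 counts (3.66 ± 0.378, adjusted p = 1.48e-06). Prodh and Aldh4a1, both of proline breakdown, were lower (-0.87 and -0.86), as were Glul, which makes glutamine (-0.75), and Oat (-0.73). In methionine and cysteine metabolism 9 of 26 were higher and 7 lower (61.5% called, against 37.2% of all autosomal genes). Csad and Cdo1, the enzymes on the way to taurine, were higher by 2.32 and 1.30, although f_pHep reached 856 CPM of Cdo1 in another serum, within the m_pHep range of 848 to 956 CPM. Nnmt, which methylates nicotinamide, was lower by 1.44, and Shmt1 and Mthfd1, of the folate cycle, by 0.98 and 0.71.

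Carbohydrate genes were higher in 29 of 40 members and lower in 3 (median 0.49). Pfkp, the platelet form of phosphofructokinase, had 44.0, 53.4 and 38.6 CPM in m_pHep and 4.66, 1.84 and 2.93 CPM in f_pHep (3.85 ± 0.259, adjusted p = 1e-08). Hk1, a hexokinase of non-hepatic tissues, was higher by 2.35. Gckr, a regulator of glucose phosphorylation, was lower by 0.55. Pck1, G6pc and Fbp1, which make glucose, were higher by 2.30, 2.28 and 0.96. Ppp1r3g, a glycogen-targeting subunit, had 209 and 6 counts, a ratio of 37.9 (17.1 to 105). Ldha, which makes lactate, had 1311, 1367 and 1286 CPM against 960, 922 and 925 CPM (0.50 ± 0.0752, adjusted p = 7.54e-05).

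Iron and metal genes held 14 higher and 2 lower of 34 (47.1% called, against 37.2% of all autosomal genes). Beside Hamp, Id1, a target of the BMP pathway that also drives Hamp, had 23.9, 24.1 and 24.5 CPM in m_pHep and 5.25, 6.56 and 4.91 CPM in f_pHep (2.12 ± 0.185, adjusted p = 2.14e-07). Smad7, an inhibitor induced by the same pathway, was lower by 0.58. For Smad7 f_pHep in other sera came down to 33.8 CPM, under the 39.6 to 42.6 CPM of m_pHep. The ferritin chains Fth1 (-0.01) and Ftl1 (-0.05) and the receptor Tfr2 (0.05) did not pass. Trf, transferrin, was higher by 0.60, and 63.5% of its exon bases are shared with the model Gm20425. Alas2, the first enzyme of haem synthesis in red cells, had 11.001, 10.8 and 9.91 CPM against 0.67, 0.58 and 0.73 CPM, while the most abundant haemoglobin gene, Hba-a1, reached at most 0.307 CPM in a library.

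Interferon-stimulated genes went both ways, 14 of 45 higher and 13 lower, with a median of -0.06. The share called was 60%, against 37.2% of all autosomal genes. Rsad2, the antiviral enzyme viperin, had 337, 352 and 266 CPM in m_pHep and 62.5, 43.9 and 46.5 CPM in f_pHep (2.64 ± 0.159, adjusted p = 2.28e-09). Iigp1, a GTPase that acts on vacuoles of parasites, was higher by 2.28. Their relatives Tgtp1, Tgtp2, Igtp and Irgm2 were lower (-0.65, -0.69, -0.38 and -0.30), and Ifit1 (0.09) and Isg15 (-0.09) did not pass. Antigen presentation genes were higher in 9 of 26 and lower in 5 (53.8% called, against 37.2% of all autosomal genes). B2m, the light chain of MHC class I, had 1910, 1876 and 1991 CPM against 1104, 1088 and 1153 CPM (0.79 ± 0.0556, adjusted p = 1.69e-08).

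Chemokines and NF-kB targets were higher in 12 of 33 and lower in 4 (48.5% called, against 37.2% of all autosomal genes). Only 5 of the 16 called members (31.2%) lay outside the range of all f_pHep libraries, against 69.9% over all called genes. Cxcl10 was among these 5, with 69.0, 67.8 and 67.3 CPM against 9.96, 4.23 and 8.98 CPM (3.13 ± 0.212, adjusted p = 1.02e-08). Cxcl11, its neighbour and fellow ligand of CXCR3, went the other way (-1.67), and 41.7% of its exon bases are shared with another model. Ccl2, which attracts monocytes, was higher by 0.87 in the same serum, but f_pHep reached 786 CPM in another serum, above the 603 to 673 CPM of m_pHep. Of 12 macrophage markers tested, only Cd68 and Mpeg1 were higher in m_pHep. The others did not pass, and all but Ptprc (0.33) had a negative fitted difference, such as Adgre1 (-0.52) and Csf1r (-0.27). The part of macrophages in these values was not tested.

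Of 28 transcription factors of the hepatocyte tested, 4 were higher and 6 lower, with a median of 0.04. The share called (35.7%) was near the 37.2% of all autosomal genes. Hnf4a, the central factor of hepatocyte identity, had 239, 227 and 220 CPM in m_pHep and 269, 323 and 272 CPM in f_pHep (-0.33 ± 0.074, adjusted p = 0.00214). Its level was thus lower in the stock in which most plasma protein genes were higher. Foxa2 was lower by 0.63, and Cebpa (0.04), Nr1h4 (0.19) and Nr3c1, the glucocorticoid receptor (0.07), did not pass. Cebpd, a C/EBP factor of the acute phase, was higher by 1.63, at 13.05 to 15.9 CPM, within the 3.11 to 25.1 CPM of all f_pHep libraries. Tbx3, a pericentral factor, was lower by 1.25.

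In the growth hormone axis 10 of 28 members were lower in m_pHep and 5 higher (53.6% called, against 37.2% of all autosomal genes). Ghr, the growth hormone receptor (chromosome 15, 3317760 to 3583492), had 124, 126 and 128 CPM in m_pHep and 191, 232 and 245 CPM in f_pHep (-0.82 ± 0.093, adjusted p = 4.05e-06). Prlr, the prolactin receptor, known to be higher in female liver, had 7.50, 7.53 and 7.06 CPM against 21.2, 26.4 and 27.4 CPM (-1.76 ± 0.124, adjusted p = 1.6e-08). Stat5b, which carries the signal, and the feedback inhibitors Socs2 and Cish were lower by 0.30, 0.48 and 0.54, and Bcl6, a repressor, by 0.76. For Cish f_pHep in other sera came down to 25.0 CPM, under the 29.3 to 31.9 CPM of m_pHep. For Bcl6 it came down to 26.2 CPM, within the m_pHep range of 23.8 to 29.0 CPM. Igf1, the main hormone made in response, had 496, 479 and 521 CPM against 467, 494 and 450 CPM, so the groups overlapped (0.08 ± 0.072, adjusted p = 0.385). Socs3, the inhibitor of IL-6 signalling, was higher by 0.89, but f_pHep in other sera reached 13.8 CPM, above the 12.1 to 12.3 CPM of m_pHep.

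Clock genes held 3 higher and 6 lower of 22, and the share called (40.9%) was near the 37.2% of all autosomal genes. Arntl (-0.06), Clock (0.01) and Per1 (-0.15) did not pass. Of the 3 higher members, Nr1d2 and Gm129 (also called Ciart) lost their calls in 3 and 5 of 15 alternative fits, and the count was 0 without m_pHep replicate 3 and 1 without m_pHep replicate 1, f_pHep replicate 2 or f_pHep replicate 3. Stress genes were higher in 17 of 33 and lower in 4 (63.6% called). The chaperones of the endoplasmic reticulum Hspa5, Hsp90b1 and Pdia4 were higher by 0.70, 0.58 and 0.52, and Nqo1, a target of NRF2, by 1.13. The p53 targets Sesn2, Gadd45a and Mdm2 were lower by 0.79, 0.82 and 0.43. For Gadd45a f_pHep in other sera came down to 68.2 CPM, under the 86.0 to 97.7 CPM of m_pHep. Cell cycle genes were lower in 15 of 32 and higher in 2 (median -0.41), with 53.1% called against 37.2% of all autosomal genes. Mki67, present in cycling cells, had 1.54, 1.81 and 2.16 CPM in m_pHep and 3.27, 7.12 and 7.77 CPM in f_pHep (-1.72 ± 0.259, adjusted p = 7.34e-05). Ccnd1, the cyclin of cell cycle entry, was lower by 2.10, and 23.4% of its exon bases are shared with a neighbour.

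Genes that respond to culture went both ways, 19 of 52 higher and 13 lower (61.5% called, against 37.2% of all autosomal genes). Cdh1, E-cadherin, had 45.5, 53.9 and 43.5 CPM in m_pHep and 6.94, 7.65 and 6.25 CPM in f_pHep (2.78 ± 0.114, adjusted p = 2.36e-11). Vim, an intermediate filament of cells in culture, was higher by 1.05, Tubb2b by 2.21 and Ankrd1, a target of YAP, by 2.36. The integrins Itga2 and Itga3 were lower (-1.50 and -1.10), as was Actb (-0.41), and Krt18 (-0.14), Fn1 (0.11) and Cd44 (0.06) did not pass. Genes of fetal liver and imprinted genes were higher in 9 of 17 and lower in 1 (58.8% called). Cd24a, a surface protein of progenitors, had 24.7, 24.4 and 24.1 CPM against 1.82, 0.89 and 2.23 CPM (3.88 ± 0.226, adjusted p = 1.43e-09), and Afp, alpha-fetoprotein, was higher by 0.46.

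Genes of the 2 zones of the liver lobule differed in count. Of 23 periportal genes 17 were higher in m_pHep and 1 was lower (median 1.61). Of 22 pericentral genes 7 were higher and 8 lower (median -0.25). The periportal list shares Alb, Cps1, Arg1, Pck1, G6pc and Cdh1 with lists above and is no independent evidence. Among pericentral genes Cyp2e1, Cyp1a2 and Gstm3 were higher (1.08, 0.98 and 1.92), and Glul, Slc1a2, Cyp2a5 and Cyp2c37 were lower (-0.75, -1.59, -2.10 and -3.25). Rnf43 and Znrf3, feedback inhibitors of the WNT pathway that patterns this zone, were lower by 0.68 and 0.34, and Axin2 (-0.56) did not pass.

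Outside the urinary protein and sex-biased lists, the 8 largest rises and the 8 largest falls (mean count of at least 50, groups not overlapping) held several genes not typical of hepatocytes. Ndufa4l2, a mitochondrial protein induced by low oxygen (chromosome 10, 127514967 to 127517154), had 12.6, 12.2 and 9.31 CPM in m_pHep and 0.295, 0.0556 and 0.177 CPM in f_pHep (5.98 ± 0.315, adjusted p = 4.47e-10). Irg1, the itaconate-forming enzyme of activated macrophages, had 10.8, 8.93 and 9.19 CPM against 0.0268, 0.306 and 0.329 CPM (5.42 ± 0.325, adjusted p = 2.13e-09), and Defb1, an epithelial defensin, was higher by 5.32. Slc16a3, a lactate exporter, Basp1, a membrane protein of neurites, and Kif5c, a kinesin, were higher by 4.30, 4.22 and 4.10, the last by 4.85 without the third f_pHep library. Tff3, a trefoil peptide of mucosa, had 28.1, 24.5 and 20.3 CPM against 1.47, 0.779 and 1.09 CPM (4.44 ± 0.197, adjusted p = 5.63e-11). Its neighbour on chromosome 17, Tff1, went the other way, with 0.184, 0.192 and 0.317 CPM in m_pHep and 3.67, 4.89 and 5.19 CPM in f_pHep (-4.29 ± 0.303, adjusted p = 1.73e-08). Dlgap1, a scaffold of synapses, had 2.18, 1.51 and 1.64 CPM against 35.0, 33.7 and 32.8 CPM (-4.26 ± 0.105, adjusted p = 4.38e-14). Hhipl1, Srgap3, Ano2, a calcium-gated chloride channel, Ltbp2, a matrix protein, and Ttn, titin, followed at -3.28, -3.03, -2.67, -2.53 and -2.37. F13a1, a factor XIII subunit of macrophages, was lower by 3.54, but f_pHep in other sera came down to 0.491 CPM, within the m_pHep range of 0.338 to 0.522 CPM.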

How the data were processed

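The deposited table holds raw exon counts of 38087 gene models, made by the authors from libraries of ribosome-depleted total RNA read in 2 x 100 cycles, per the labels' protocols. Reads were aligned to mm10 with STAR 2.4.0i, per the submitters' processing notes. How reads were counted (program, annotation, strand) is not given in the sources used here. Of 15 columns 13 were used, because 2 carry the same name and could not be assigned. Gene positions and exon overlaps came from GENCODE M21 (GRCm38), with 36308 models placed and 33631 of them autosomal.

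All 13 libraries in 5 groups were fitted with edgeR 4.0.16 (R 4.3.3, limma 3.58.1) by the quasi-likelihood F test with TMM scaling, filterByExpr at a minimum count of 10 and no covariates. P-values were adjusted by Benjamini-Hochberg over 17405 genes, with a threshold of 0.05. The model had 8 residual degrees of freedom and a biological coefficient of variation of 9%. Log2 differences are m_pHep minus f_pHep, with the SE taken from the F statistic. Some genes with few counts in a group are given as ratios of counts with exact 95% intervals, or against a floor of 3 counts over the group. Both cover counting error only. On simulated counts of 16985 genes the fit recovered 73% of genes changed by 1 on the log2 scale and 49.5% of those changed by 0.5, with 7 false calls. The simulation changed far fewer genes than the 6109 called here, in equal numbers up and down. Its false calls are therefore no error rate for those calls.

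The 37 gene lists hold 1148 memberships, of which 1125 matched by symbol, 20 by identifier and 3 not at all, and 1075 were autosomal and tested. Members and lists were chosen with earlier results of these data known. Genes named by rule are the 8 largest rises and falls, the most abundant member of each list with up to 2 rises and 2 falls, and Ghr, Stat5b, Socs2, Cish, Igf1, Bcl6, Hnf4a and Alb. Other members named in the text were chosen after their values were seen. Alternatives were other scalings, DESeq2 1.42.0, other filters, a replicate block, fewer libraries or genes, and leaving out each replicate. Some list members are not reported here.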

Additional observations from a re-analysis of the deposited data

How the results depend on the processing

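The 6109 calls (2918 higher, 3191 lower) ranged from 5620 to 6695 over the fits on all 6 libraries, and from 5019 to 5807 when one replicate was left out, with 2511 to 2804 higher and 2486 to 3003 lower. The 1335 calls of at least 2-fold ranged from 1224 to 1337 without one replicate. They fell to 761 among genes with a mean of at least 50 counts, where fewer genes were tested (12174). No call turned direction in any fit, and 80.4% to 100% of the 6109 calls were kept. Libraries of the same replicate number were at most weakly paired, with correlations of 0.038, 0.044 and 0.126. Those between different numbers ran from -0.085 to 0.040. A replicate block gave 5992 calls, and 5758 with only the 6 libraries. Among genes not called, Hmgcs1 changed sign (-0.17 to 0.043 without one replicate, positive without the third f_pHep library) and Igf1 reached -0.00298 with library size only. Krt18 gained a call with library size only and without f_pHep replicate 1, Plin2 with library size only, and Aldh1a1 in 5 fits. Cyp4f16 lost its call in 10 of 15 alternative fits, and Plau, Gm129 and Cdkn1a in 5 each. The fitted differences of A1bg and Sult3a1 moved from -8.96 to -12.34 and from -7.95 to -10.00 without the second m_pHep library, which held all their m_pHep counts. Depth limits genes with few counts in one stock, and for some of these ratios or bounds are given. Others, such as Ndufa4l2, Irg1, Kif5c, Tff1, Acot3 and Cyp2a22, are given as fitted differences. The size of those differences rests on few counts in the lower stock.
With library size only, lower members rose from 6 to 10 for transcription factors, from 6 to 10 for clock genes, from 2 to 6 for iron genes and from 6 to 11 for fatty acid synthesis. Without the second f_pHep library, 2 cholesterol genes were higher (4 with all libraries), 7 transcription factors were higher (4) and 3 MHC genes lower (5). Without the first m_pHep library 8 interferon-stimulated genes were lower (13), without m_pHep replicate 1 or replicate 2 only 3 cholesterol genes were lower (6), without m_pHep replicate 2 or replicate 3 only 1 coagulation factor was lower (3), and without m_pHep replicate 3 only 2 chemokine genes were lower (4). Among genes with a mean of at least 50 counts, 2 sulfotransferases were lower (8), 18 female-biased genes lower (29) and 7 steroid enzymes higher (13).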
